A study of Aptenodytes patagonicus with 3 samples.

Results

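The genes that carry, store or bind oxygen in muscle and blood were examined in the pectoralis, the main swimming muscle, of 3 juvenile king penguins (Aptenodytes patagonicus). They were chosen by name. A list of 8 genes held the muscle oxygen store myoglobin (MB), the haemoglobin chains HBAD, HBAA, HBBR and HBBA, the related globin CYGB, the membrane-skeleton gene ANK1 and the heme synthesis gene ALAS2. A probe set was taken where the platform annotation gave it exactly 1 symbol and that symbol was on the list, which left 13 of 36813 probe sets, for 5 of the 8 genes (of 12913 genes with a probe set of their own). MB, HBBR and CYGB had 1 probe set each, HBAD had 3 and ANK1 had 7. HBAA, HBBA and ALAS2 had none under that single symbol and were dropped. The annotation names the HBAA gene HBA1, which is read below with the other globins. The list was drawn up with results of these arrays already known, so levels and differences are given as descriptions, with no test.

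All 3 birds belonged to the artificially acclimated (AA) group. They were captured before their first entry into cold water, moulted in captivity and were then immersed 10 times in a tank at 8 °C, for 5 hours every 2 days. Birds 1 and 3 were females and bird 2 was the male, so sex and the individual cannot be told apart. The never-immersed and sea-acclimatized birds were not analysed here, so no value below is a change with immersion. Each biopsy was hybridized to its own Affymetrix Chicken Genome array, whose probes are chicken sequences, and each value is a log2 signal, on which 1 unit is a 2-fold step. Penguin RNA matches some chicken probes better than others, so levels were compared between birds within a probe set and not between genes.

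Myoglobin is a monomeric heme protein of muscle that binds oxygen and is abundant in the swimming muscles of diving birds and mammals. Haemoglobin is its tetrameric counterpart in blood, built of alpha-type and beta-type chains. Bird erythrocytes keep their nucleus and carry RNA in the circulation, so a muscle biopsy can hold red-cell transcripts from the blood in its vessels. In bulk tissue, fewer red cells and less RNA per red cell cannot be told apart.

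The arrays had nearly identical distributions, with medians from 8.62 to 8.63 and a maximum of 15.27 in each bird. Over all 36813 probe sets the median SD between birds was 0.19 and 95% of SDs were up to 0.51. The skeletal actin gene ACTA1 held the array maximum in every bird. Of 10 fast-fibre markers 7 were measured, at means from 8.71 to 15.27, and of 9 slow-fibre markers 8 were measured, at means from 7.04 to 14.16, with MYH7 and MYL2 below the lower quartile of 7.87. Of 12 erythrocyte markers outside the list, 9 were measured, with means from 8.47 to 11.69. GATA1, KLF1 and NFE2 had no probe set of their own.

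Myoglobin was among the brightest signals and differed little between the birds, while the haemoglobin chains HBAD and HBBR were highest in bird 1 and lowest in bird 2. ANK1 gave 2 different pictures on different probe sets. A pair of its 7 probe sets moved with the haemoglobin chains over a wide range, and the brightest did not.

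MB read 14.43, 14.54 and 14.49 in birds 1, 2 and 3 (14.49 ± 0.056, SD, n = 3). Only 21 of the 36813 probe sets had a higher mean. Bird 2 was the highest and bird 1 the lowest, by a log2 range of 0.11, which is 1.08-fold. The SD of MB lay at the 5.70th percentile of all probe sets. Of the 21 brighter probe sets, 12 had a smaller SD. The 21 include the actin gene ACTA1, the ferritin gene FTH1, the titin gene TTN and 2 probe sets of the alpha globin gene HBA1.

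The even level of MB has to be read against the top of the scale. After quantile normalization each rank within an array has its own value, and the ranks of MB were 28, 19 and 22 in birds 1, 2 and 3. For the 70 probe sets with a mean above 14 the median range between birds was 0.14, against 0.41 for the 253 with means from 13 to 14. MB was thus about as even as other signals at the top of the scale, and 42 of the 70 had a larger range. The scale did not hide every difference there. HBAD, with nearly the same mean, had a range of 0.89, and 0 of the 70 exceeded it.

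**Figure D1:**
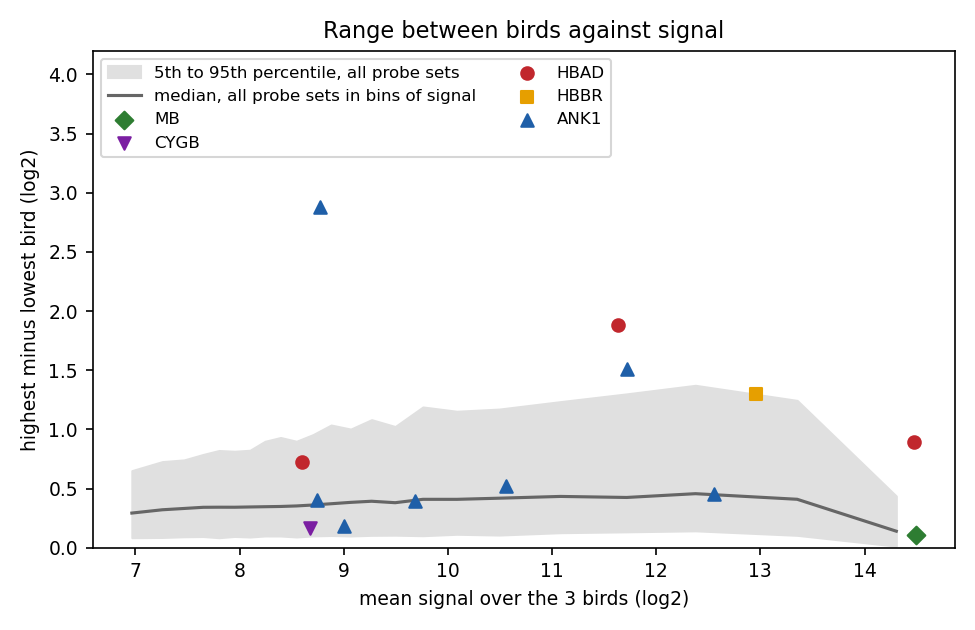
Highest minus lowest bird (log2 units) against the mean signal over the 3 birds (log2) for the 13 member probe sets. The line is the median and the band the 5th to 95th percentile of all 36813 probe sets in bins of signal. The line and band end at a signal of 14.31, where the median range is 0.14 and the 95th percentile 0.44. MB (green), at a range of 0.11, and the bright HBAD probe set, at 0.89, lie to the right of that end.

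HBAD encodes alpha-D globin, the alpha-type chain of the minor haemoglobin of adult birds. The symbols HBAD and HBBR are absent from the RefSeq gene symbols of the king penguin, so both names are those of the chicken annotation. Which penguin alpha-type RNA the HBAD probe sets took up was not tested. Its brightest probe set read 14.95, 14.06 and 14.41 in birds 1, 2 and 3 (14.47 ± 0.45, SD, n = 3). It ranked as number 6 on the array of bird 1, number 73 on that of bird 2 and number 29 on that of bird 3. Bird 1 lay above bird 2 by a log2 difference of 0.89 and above bird 3 by 0.54. The highest bird stood 1.86-fold above the lowest.

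A second HBAD probe set, built on the same chicken transcript but open to probes that other transcripts share, read 12.81, 10.92 and 11.17 (11.63 ± 1.02, SD, n = 3). Here birds 2 and 3 differed by 0.25 and bird 1 stood apart, 1.89 above bird 2 and 1.63 above bird 3. The dimmest HBAD probe set, near the array median, read 8.67, 8.21 and 8.94 (8.60 ± 0.37, SD, n = 3), with bird 3 the highest. Bird 2 was the lowest on all 3 HBAD probe sets, and bird 1 was the highest on 2 of them.

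HBBR encodes rho globin, which in the chicken is a beta-type chain of the embryo. Its probe set read 13.63, 12.33 and 12.93 in birds 1, 2 and 3 (12.96 ± 0.65, SD, n = 3). The birds were spaced almost evenly, with bird 1 above bird 3 by 0.70 and bird 3 above bird 2 by 0.60. The whole range of 1.30 is 2.47-fold. Among the 1068 probe sets with a mean of at least 12, the SD of HBBR lay above 94.5%, that of the brightest HBAD probe set above 89.0% and that of MB above 5.71%.

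Beta-type globin genes are close copies of each other, so a chicken probe set named for an embryonic chain may take up RNA of the adult chains. A probe set that the annotation gives to both HBBR and HBBA, and that therefore names neither, read 13.58, 13.06 and 13.54. Another that it gives to both HBE1 and HBBA read 14.38, 12.78 and 13.83. Both had the order of HBBR, with bird 1 above bird 3 above bird 2. Their ranges of 0.52 and 1.60 lay on either side of that of HBBR.

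CYGB encodes cytoglobin, a globin of fibroblasts and related cells. It read 8.59, 8.76 and 8.70 in birds 1, 2 and 3 (8.68 ± 0.084, SD, n = 3), close to the array median. Its range of 0.17 was small and its order was that of MB, with bird 2 highest and bird 1 lowest.

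**Figure D2:**
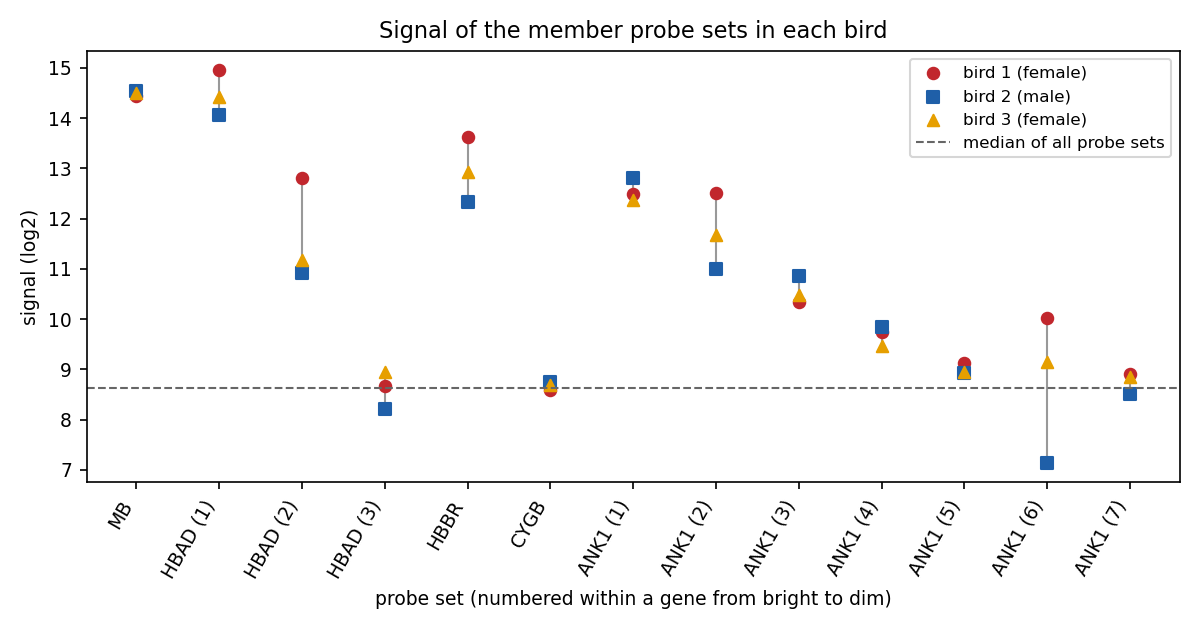
Log2 signal of the 13 member probe sets in bird 1 (circles), bird 2 (squares) and bird 3 (triangles), with a grey line over the range and a dashed line at the median of all probe sets. Probe sets of a gene are numbered from bright to dim. The birds overlap at MB and CYGB and separate at HBAD, HBBR and the ANK1 probe sets numbered 2 and 6.

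ANK1 encodes ankyrin 1, which ties the spectrin skeleton of the erythrocyte to its membrane. The gene is also expressed in striated muscle, where in mammals a short product lies in the sarcoplasmic reticulum. Its brightest probe set read 12.50, 12.82 and 12.36 in birds 1, 2 and 3 (12.56 ± 0.23, SD, n = 3). Bird 2, the lowest for the haemoglobin chains, was the highest here.

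The next brightest ANK1 probe set read 12.51, 10.99 and 11.66 (11.72 ± 0.76, SD, n = 3). It had the order of HBBR and nearly its spacing, with bird 1 above bird 3 by 0.84 and bird 3 above bird 2 by 0.67. In bird 1 the 2 brightest ANK1 probe sets had almost the same value, and in bird 2 they stood 1.83 apart.

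The widest range among the 13 belonged to a dimmer ANK1 probe set, which read 10.02, 7.14 and 9.15 (8.77 ± 1.48, SD, n = 3). Its range of 2.88 is 7.35-fold, and its SD lay at the 99.95th percentile of all probe sets. In bird 2 it lay below the lower quartile of the array. A probe set built on another chicken ANK1 transcript read 10.34, 10.85 and 10.47, with bird 2 highest, and the other 3 had ranges from 0.18 to 0.40.

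Differences between ANK1 probe sets were therefore as large as those between genes. The likeness of 2 probe sets was measured as the root mean square, over the 3 birds, of the difference between their deviations from their own means, so 0 means the same pattern. The ANK1 probe set at 12.51, 10.99 and 11.66 lay at 0.088 from HBBR and the brightest ANK1 probe set lay at 0.17 from MB. HBBR and the bright HBAD probe set lay at 0.17 from each other. The measure is not scaled by spread, so even probe sets lie close by default. The brightest ANK1 probe set and MB, with SDs of 0.23 and 0.056, differed in the order of birds 1 and 3. HBBR and HBAD, with SDs of 0.65 and 0.45, had the same order. MB and CYGB lay at 0.024. Each figure rests on 3 birds.

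A difference of at least 0.5 log2 units between a bird and the mean of the others, 1.41-fold, was used for counting. In bird 1, 5 of the 13 probe sets were higher by that much and 0 were lower, against 5.72% higher and 3.74% lower among all probe sets. The 5 were the 2 brighter ones of HBAD, HBBR and 2 of ANK1. In bird 2, 6 of the 13 were lower and 0 higher, against 8.50% lower and 5.01% higher among all. They were all 3 of HBAD, HBBR and the same 2 of ANK1. In bird 3, 1 was higher and 1 lower, against 5.16% and 3.64% of all. The 13 probe sets share genes, so they are not 13 separate observations. The differences of the 3 birds on a probe set sum to 0, so a high bird 1 lowers the others.

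**Figure D3:**
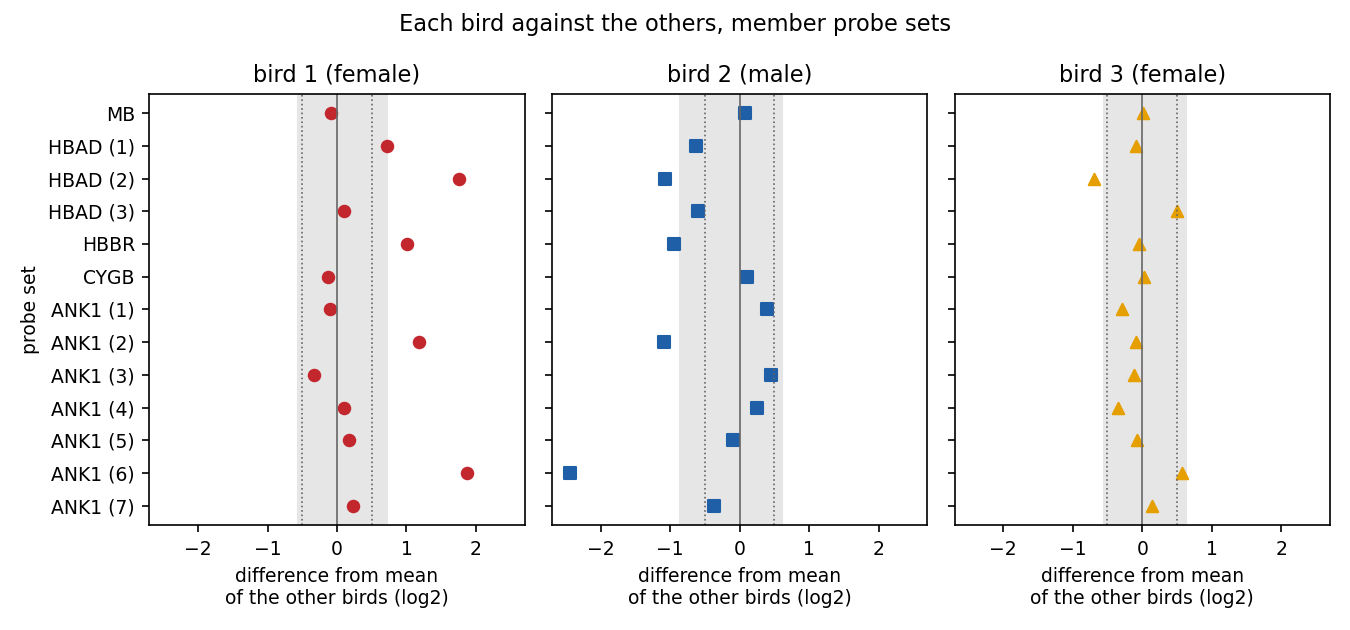
Log2 difference of each bird from the mean of the other birds for the 13 member probe sets, 1 panel per bird. Dotted lines mark 0.5 in either direction and the grey band holds the central 95% of all probe sets. In bird 1 the 2 brighter HBAD probe sets, HBBR and 2 ANK1 probe sets lie to the right, and the dimmest HBAD probe set lies near 0. In bird 2 every HBAD probe set, HBBR and the same 2 of ANK1 lie to the left. The brightest HBAD probe set lies within the band in both of these birds. MB lies near 0 in each panel.

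The order of bird 1 above bird 3 above bird 2 was found on 7 of the 13 probe sets, 2 of HBAD, HBBR and 4 of ANK1, against 15.1% of all probe sets. On 2 of these 4 ANK1 probe sets the range was narrow, at 0.18 and 0.40.

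Set beside myoglobin, HBAD was the brighter in bird 1 and the dimmer in birds 2 and 3, while HBBR and the brightest ANK1 probe set lay below MB in every bird. The gap between the bright HBAD probe set and MB was 0.52, -0.49 and -0.08 in birds 1, 2 and 3. That between HBBR and MB was -0.80, -2.22 and -1.57, and that between the brightest ANK1 probe set and MB was -1.94, -1.73 and -2.13. Because the probes differ, a gap has no meaning by itself, and only its change between birds does. From bird 2 to bird 1 the gap was higher by 1.01 for HBAD and by 1.41 for HBBR. For ANK1 it went the other way, at -0.21, and for CYGB the gap stayed between -5.84 and -5.79.

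Over HBAD, HBBR and ANK1, on the brightest probe set of each, birds 1, 2 and 3 had median differences of 0.72, -0.63 and -0.09. In each bird this median was simply the HBAD value. HBBR had 1.00, -0.95 and -0.05, and ANK1 had -0.09, 0.39 and -0.29. The corresponding differences of MB were -0.09, 0.08 and 0.01. Over all 12913 genes the medians were -0.02, 0.04 and -0.01. With only the probe sets designed for a single transcript, the red-cell median of bird 1 was 0.10, since HBAD is then read from its dim probe set, and MB has no such probe set.

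Other globins shared the order in part. HBA1, an alpha-type chain, read 14.83, 14.44 and 14.77 in birds 1, 2 and 3 on its brightest probe set. HBE, named for an embryonic beta-type chain, read 14.23, 13.74 and 14.27. Bird 2 was the lowest for both, and bird 3 was close to bird 1. The ranges of 0.38 and 0.53 were narrower than that of HBBR. The next brightest HBA1 probe set read 14.70, 14.53 and 14.65, with a narrower range of 0.17. Another, far dimmer, read 8.33, 8.68 and 8.36, with bird 2 highest. HBZ, whose chain is embryonic, read 8.36, 8.40 and 8.37, and NGB, the globin of nerve cells, read 9.98, 9.70 and 9.70. Of the 4 measured genes of this list, 0 were higher in bird 1 by 0.5 and 1, HBE, was lower in bird 2, against 6.88% and 11.0% of all genes on their brightest probe set. Their median differences were 0.22, -0.25 and 0.06 in birds 1, 2 and 3.

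Heme, the iron-bearing group of every globin, is made in mitochondria and cytosol. Of 11 measured heme synthesis and transport genes, 3 were higher in bird 1 and 2 were lower, against 6.88% and 4.36% of all genes. SLC25A37, the mitochondrial iron importer mitoferrin 1 of red-cell precursors, read 11.23, 8.85 and 10.39 on its brightest probe set, with bird 1 far above bird 2. Its other 3 probe sets lay lower, and on 2 of them bird 2 was the highest, with 7.66, 8.33 and 7.79 on the wider of these. CPOX, a late enzyme of the pathway, read 11.91, 10.99 and 11.33. ALAS1, the housekeeping form of the enzyme that starts it, read 11.72, 11.14 and 11.11, where birds 2 and 3 were alike.

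Bird 1 above bird 3 above bird 2 was the order of 5 of the 11 genes, against 15.8% of all genes. Besides SLC25A37 and CPOX these were UROD, FECH and FLVCR2, each within 0.5 in every bird. FLVCR2, at a mean of 6.82, lay below the lower quartile of the arrays. FECH, which inserts the iron, read 8.61, 8.32 and 8.57, and UROD, an enzyme of the middle of the pathway, read 8.74, 8.43 and 8.50. The 2 genes lower in bird 1 were UROS, at 8.21, 8.88 and 8.61, and ABCB10. At a mean of 7.62, ABCB10 also lay below that quartile. The median differences of the list were 0.22 in bird 1, -0.23 in bird 2 and 0.01 in bird 3.

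Of the lists outside the members, the red-cell enzymes had the lowest median in bird 2. Of the 5 measured, 4 were lower there by 0.5 and 2 were higher in bird 1, against 11.0% and 6.88% of all genes. With only 5 genes, these counts are too small to read as a result. CA2, the carbonic anhydrase of red cells, read 12.59, 10.78 and 11.70, the order of HBBR with a range of 1.81. GPX1, a glutathione peroxidase of many cells, read 11.67, 10.76 and 11.27. BPGM, which makes 2,3-bisphosphoglycerate in mammalian red cells, read 10.12, 9.41 and 10.26. Its dimmer probe set read 7.47, 7.76 and 7.71, with bird 2 highest. The median differences were 0.28, -0.71 and 0.19 in birds 1, 2 and 3.

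Genes of the red-cell membrane did not move as a group. Of the 15 measured, 1 was higher in bird 1, 3 were lower in bird 2 and 2 were higher there, against 6.88%, 11.0% and 5.95% of all genes. The list had median differences of 0.11, 0.09 and -0.08. EPB41, which encodes the skeleton protein 4.1R of red cells and other tissues, read 12.99, 11.22 and 12.73. On its other 3 probe sets it read 12.43, 9.89 and 11.83, then 9.58, 10.04 and 9.45, and 7.50, 7.56 and 7.81. As for ANK1, probe sets of 1 gene gave opposite places to bird 2.

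SLC4A1, the anion exchanger that is the main red-cell membrane protein and the anchor of ankyrin, read 9.22, 9.02 and 8.79. RHAG, a red-cell membrane channel, read 8.60, 8.84 and 7.96 on its brighter probe set. In neither was bird 2 the lowest, but it was on the dimmer RHAG probe set, at 7.67, 7.32 and 7.83. SLC2A1, a glucose transporter of many tissues, read 10.45, 9.76 and 11.27, and MPP1, a palmitoylated membrane protein, read 11.30, 12.20 and 11.37. The dimmer MPP1 probe set read 10.64, 10.63 and 10.87, where bird 2 was not the highest.

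Of 9 measured erythroid regulators, 3 were higher in bird 1 and 3 lower in bird 2, the same genes TAL1, LDB1 and TFRC, and MYB was lower in bird 1. Of all genes 6.88% were higher in bird 1, 4.36% lower in bird 1 and 11.0% lower in bird 2. TFRC, the transferrin receptor through which cells take up iron, read 9.89, 8.42 and 8.35, and 8.08, 8.11 and 8.57 on its other probe set. LDB1, a widely expressed cofactor of erythroid transcription, read 12.69, 10.95 and 11.70. TAL1, a factor of blood-cell precursors, read 11.54, 10.43 and 11.03. On its other probe sets it read 9.82, 9.37 and 9.15, and 7.92, 8.43 and 8.48. The other 6 include HEMGN at 9.01, 8.96 and 9.05 and GFI1B at 9.11, 9.07 and 9.12, both factors of red-cell precursors, which were even between the birds. LMO2 read 10.18, 10.23 and 10.09 on its brightest probe set. Of its 2 probe sets, 1 was higher in bird 1 and lower in bird 2 by at least 0.5. For ZFPM1, 1 of 3 was higher in bird 1. Among all probe sets 5.72% were higher in bird 1 and 8.50% lower in bird 2. MYB, a factor of early precursors, read 8.47, 8.76 and 9.84. The median differences were 0.02, -0.07 and -0.11 in birds 1, 2 and 3.

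Among the 9 measured erythrocyte markers the median differences were 0.19, -0.05 and 0.02 in birds 1, 2 and 3. CA2, TFRC and TAL1 were higher in bird 1 and lower in bird 2 by at least 0.5, against 6.88% and 11.0% of all genes. TFRC was lowest in bird 3. SLC4A1, EPB42, SPTB, HEMGN and GFI1B were within 0.5 in birds 1 and 2 on their brightest probe sets. A dimmer probe set of SPTB, a spectrin gene, read 9.64, 8.46 and 8.53, and a dimmer one of EPB42, a protein of the membrane skeleton, read 8.16, 7.45 and 7.79, both higher in bird 1 and lower in bird 2 by at least 0.5. RHAG was higher in bird 2. Whether the amount of blood in the biopsies had a part in the order of HBAD and HBBR was not tested.

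**Figure D4:**
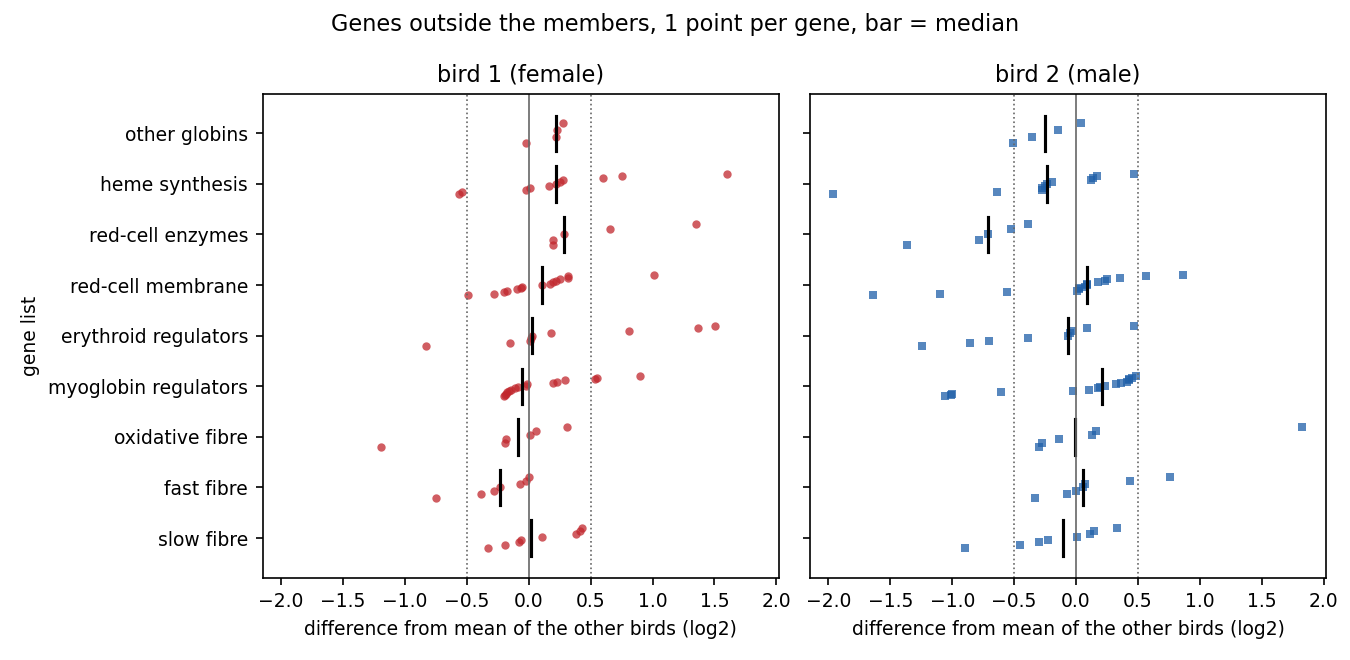
Log2 difference of bird 1 (left) and bird 2 (right) from the mean of the other birds for genes outside the members, 1 point per gene on its brightest probe set, with a bar at the median of each list and dotted lines at 0.5. Red-cell enzymes have medians of 0.28 and -0.71, and the fast-fibre list has medians of -0.24 and 0.06.

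The genes known to steer myoglobin and the oxidative fibre programme had a median SD of 0.25, at signals below that of MB. Of 16 measured, 3 were higher in bird 1 (PPARGC1A, TFAM and EPAS1) and 4 lower in bird 2 (TFAM, EPAS1, PPP3CA and MYOD1), against 6.88% and 11.0% of all genes, with median differences of -0.05, 0.21 and -0.18 in birds 1, 2 and 3. PPARGC1A, the coactivator PGC-1 alpha of mitochondrial genes, read 10.39, 10.35 and 9.34. Its other probe set read 9.43, 9.43 and 8.35, so bird 3 was about 1 unit lower on both. EPAS1, the hypoxia factor HIF-2 alpha, read 11.73, 10.46 and 11.21, the order of HBBR, and its dimmer probe set read 8.23, 8.36 and 8.05. TFAM, a mitochondrial transcription factor, read 10.24, 9.17 and 10.23. MYOD1, a myogenic factor, read 10.80, 10.24 and 11.70. On their brightest probe sets the MEF2 factors were highest in bird 2, with MEF2D at 10.60, 11.01 and 10.56, MEF2C at 9.78, 10.12 and 9.61 and MEF2A at 12.17, 12.31 and 12.06. On 2 of the other 3 MEF2A probe sets bird 2 was the lowest, at 10.20, 9.87 and 10.19 and at 10.50, 10.42 and 10.44.

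Of 6 measured genes of the oxidative fibre itself, 5 were within 0.5 in every bird, with median differences of -0.09, -0.01 and 0.04. The 1 past 0.5 was FABP3, the fatty acid binding protein of oxidative muscle, which read 11.64, 13.66 and 12.02. It was lower in bird 1 and higher in bird 2, there by 1.83, against 4.36% and 5.95% of all genes. It was also lower in bird 3, by 0.63. A list of 6 genes is too short to read this count as a result. CKMT2, the mitochondrial creatine kinase, read 13.75, 13.36 and 13.53, and CYCS, cytochrome c, differed from the other birds by 0.01, -0.30 and 0.29. MYLPF, a fast light chain, read 12.34, 13.35 and 12.83, the reverse of the order of HBBR. Of the 8 slow-fibre genes 1 was past 0.5, MYL3, at 11.44, 10.56 and 11.47. It was lower in bird 2, as were 11.0% of all genes.

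Genes with the pattern closest to a member were sought on the brightest probe set of each gene, among those with a mean above the lower quartile and an SD at least 50% as large as that of the member. For MB, 2620 of 11277 such genes lay within 0.1, led by SLC6A12, AHDC1, CIB1, ADD1 and ZCCHC9, so an even pattern is common. For HBAD, 171 of 5070 lay within 0.1, led by KDM5A, AGBL5, GNAI1, PPP2CA and SPOUT1. For HBBR, 51 of 2568 did, led by PITPNM2, SLC38A2, COL5A2, DENND6A and LGALSL2. None of these 15 genes was on a list of red-cell genes except ADD1, a spectrin-binding protein, and 176 genes lay closer to HBBR than HBAD did. Likeness over 3 birds therefore does not single out globins.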

How the data were processed

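Pectoralis RNA of 3 AA birds was hybridized to Affymetrix Chicken Genome arrays. By the methods, the authors summarised probes with MaxRS, a procedure for hybridization across species, and deposited quantile-normalized log2 values, 1 per probe set and bird. No source used here gives the number of arrays that were normalized together. Limma is named, without a version, in the submitters' processing notes. Quantile normalization forces equal distributions, so a bright signal takes the value of its rank.

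The log2 values were used as deposited. Symbols came from the platform annotation, in which 26041 probe sets have 1 symbol, 170 have several and 10602 have none. For each probe set the SD and the difference of each bird from the mean of the others were computed in Python 3.11.15 with pandas 2.3.3 and NumPy 2.4.6, and the steps were tested on simulated data. Genes outside the members were read from the probe set with the highest mean. All member probe sets are described, 3 of ANK1 only by range or order. Up to 3 genes per list by largest difference are named, with the 5 genes most like MB, HBAD and HBBR. Other genes were named after their values were seen. The members and lists were chosen with earlier results of these data known. The planned comparison with never-immersed birds does not apply to 1 group, and the number of arrays limits the precision. Alternatives were renormalization, median centring, other probe-set choices, other thresholds and leaving out each bird.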

Additional observations from a re-analysis of the deposited data

How the results depend on the processing

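Renormalization and median centring kept the red-cell median, given by HBAD in each bird, within 0.01 of its value. With only probe sets designed for a single transcript, the red-cell median of bird 1 was 0.10 in place of 0.72. This choice keeps 7 of the 13 probe sets. In bird 1, 3 of the 7 were past 0.5, in place of 5 of 13. In bird 2 it was 4 of 7 in place of 6 of 13, and in bird 3 1 of 7 in place of 2 of 13. The share among all single-transcript probe sets was not computed. At a threshold of 1 log2 unit the count was 4 in bird 1 in place of 5, 3 in bird 2 in place of 6 and 0 in bird 3. The share of all probe sets past 1 unit was not computed, so these counts have no background beside them. The range over the birds, in place of the SD, had a median of 0.52 over the 13 probe sets. With the mean over genes in place of the median, the red-cell difference was 0.54, -0.40 and -0.15 in birds 1, 2 and 3. With HBA1 added, an alternative chosen after seeing the data, the red-cell median was 0.47 in bird 1 and -0.49 in bird 2. Leaving out each other bird in turn moved the red-cell median from 0.54 to 0.89 in bird 1, from -0.89 to -0.36 in bird 2 and from -0.54 to 0.36 in bird 3. The difference of MB less that median ran from -1.01 to -0.60, from 0.41 to 1.01 and from -0.41 to 0.60. The MB difference itself ran from -0.11 to -0.06, from 0.05 to 0.11 and from -0.05 to 0.06. The counts past 0.5 ran from 5 to 6 in bird 1, from 4 to 6 in bird 2 and from 4 to 5 in bird 3. With all birds bird 3 had 2. With a bird left out, each difference is between 2 birds and no longer from a mean. The share of all probe sets past 0.5 was not computed for this setting, so these counts have no background either. The median SD ran from 0.19 to 0.33. No paired analysis was possible because there is 1 group. Few arrays and signals near the top of the scale limit these values.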

Other observations

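The order of HBAD and HBBR, bird 1 above bird 3 above bird 2, was that of 15.8% of all genes. It held for 2 of 9 erythrocyte markers, 2 of 10 endothelial markers and 1 of 10 leukocyte markers. Among 4 thrombocyte, 8 fibroblast and 7 fast-fibre markers it held for 0, and among 8 slow-fibre markers for 2. The 10 endothelial markers had median differences of -0.09, 0.19 and -0.10 in birds 1, 2 and 3, with VWF at 10.88, 10.15 and 10.88, CLDN5 at 9.03, 9.67 and 9.59 and PECAM1 at 9.90, 9.41 and 9.46. The 10 leukocyte markers had -0.15, 0.15 and 0.07, led by the antigen-presentation gene CD74 at 9.89, 10.81 and 11.34, lowest in bird 1. SPI1 and CSF1R, of myeloid cells, read 12.26, 12.26 and 11.68, and 9.74, 10.30 and 10.04. Of 7 thrombocyte markers, 4 were measured, with medians of -0.26, 0.17 and -0.05, and the integrin gene ITGB3 read 11.00, 11.74 and 10.71. GP9 read 10.82, 10.99 and 11.24, and F13A1 read 9.76, 10.05 and 10.05. The 8 fibroblast markers had 0.13, -0.12 and -0.12. The collagen genes COL3A1 and COL1A1 and the matrix gene DCN were highest in bird 1, with differences from the others of 1.35, 0.68 and 0.56. They were the 3 of 8 higher there by 0.5, against 6.88% of all genes. COL3A1 was higher by that much on 3 of its 6 probe sets, against 5.72% of all probe sets. COL1A2 read 10.76, 10.47 and 10.94 on its brightest probe set, with bird 3 highest, and was higher in bird 1 by 0.5 on 2 of 8. LUM and FBLN1 of the same list were lowest in bird 1, at -0.32 and -0.25. Both lay below the lower quartile of the arrays, as did POSTN and PDGFRA. The fast-fibre markers had -0.24, 0.06 and 0.00, and the slow-fibre markers 0.02, -0.11 and 0.13. Of the fast-fibre markers MYBPC2 read 9.56, 9.60 and 10.29 and PVALB 8.53, 9.01 and 8.61. Of the slow-fibre markers ATP2A2 read 10.90, 10.35 and 10.70 and MYL2 7.55, 7.70 and 7.18.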
